A study of Mus musculus with 12 samples.

Results

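The 10 genes described here encode heat-shock chaperones, the proteins that fold other proteins and keep damaged ones from clumping, together with the main transcription factor that controls them. They were chosen by symbol, as the rows of the deposited count table whose Ensembl ID maps to Hspa1a, Hspa1b, Dnajb1, Hsph1, Hsp90aa1, Hspa8, Hsp90ab1, Hspd1, Hspe1 and Hsf1, out of 56691 gene IDs in the table. All 10 were found and all 10 passed the filter on low counts. The RNA came from CD8+ T cells of mouse spleen, sequenced in 12 libraries from 4 groups of 3. The groups were Senp1 CKO cells after 48 h of stimulation, Senp1 WT cells after 48 h, Senp1 CKO cells at 0 h and Senp1 WT cells at 0 h. Senp1 encodes a protease that takes the small modifier protein SUMO off other proteins, and CKO is the usual short form of conditional knockout. Stimulation was with antibodies to CD3, at 5 µg/ml, and to CD28, at 1 µg/ml, which engage the T-cell receptor complex and its costimulatory receptor, and the 0 h cells were left without them. The labels used here named no Cre driver, floxed allele or age of the mice, and they did not say whether replicates were separate animals, so the p-values cover only the spread among these 12 libraries.

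Chaperones of the HSP70 family bind exposed stretches of unfolded protein and release them in cycles driven by ATP, J-domain proteins such as Dnajb1 bring them their clients and start the cycle, and exchange factors such as Hsph1 reset it. HSP90 proteins act later, on nearly folded clients that include many kinases, and the Hspd1 and Hspe1 proteins form the barrel and lid of the folding chamber in mitochondria. HSF1 is held inactive in unstressed cells and, on heat or other protein damage, binds repeats of a short DNA unit in the promoters of these genes. Textbook usage splits them into stress-inducible forms, here Hspa1a, Hspa1b, Dnajb1, Hsph1 and Hsp90aa1, and forms that fold proteins in growing cells without stress, here Hspa8, Hsp90ab1, Hspd1 and Hspe1. T cells that leave quiescence make much more protein than before, which is the setting in which these genes are followed here.

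The unit of every level is CPM, a read count put on one common library size, listed by replicate 1, 2 and 3. A level is thus relative to the other RNA of its library, and RNA per cell was not measured here. Rises and falls below are meant in this relative sense, also between the times. Changes are given as log2 values ± standard error from edgeR's quasi-likelihood test over 15935 genes. Genes whose adjusted p was under 0.05 count as called. The labels were first checked with Senp1, which had 70.0, 74.5 and 66.3 CPM in CKO cells at 48 h, against 150.3, 171 and 164 CPM in WT cells at 48 h, a log2 difference of -1.20 ± 0.069 (edgeR adjusted p = 5.43e-10). At 0 h it had 56.5, 59.8 and 54.6 CPM in CKO cells, against 83.9, 85.4 and 77.9 CPM in WT cells, a log2 difference of -0.53 ± 0.070 (edgeR adjusted p = 6.26e-05). Senp1 was therefore lower but not absent in the CKO libraries, and no library overlapped the other genotype at its time. Library totals ran from 15900529 to 22427151 counts.

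Other cells and cell state moved with time too. All 7 CD8 T-cell markers, Cd8a and Cd3e among them, were detected in every group, with summed levels of 1679 to 1754 CPM in CKO cells at 48 h, 1949.9 to 1994 CPM in WT cells at 48 h, 3741 to 4002 CPM in CKO cells at 0 h and 3884 to 4067 CPM in WT cells at 0 h. The summed level of 8 B-cell markers was 37.9 to 59.4 CPM in CKO and 31.5 to 64.1 CPM in WT cells at 48 h, and 206 to 259 CPM in CKO and 301 to 586 CPM in WT cells at 0 h. Thus a small B-cell signal was present at 0 h, it was higher in all 3 WT than in all 3 CKO libraries, and none of its 8 markers was at 0 in any group. The summed level of 13 immediate early genes, which are known to rise when tissue is taken apart, was 969 to 1034 CPM in CKO and 987 to 1082 CPM in WT cells at 48 h, against 4525 to 6808 CPM in CKO and 4216 to 5627 CPM in WT cells at 0 h. Markers of other blood cells were low: 4 CD4 T-cell markers summed to between 56.7 and 106 CPM over the 12 libraries, 7 myeloid markers to between 26.6 and 108 CPM, 4 natural killer markers to between 111 and 261 CPM and 5 erythroid markers to between 0.136 and 31.6 CPM. Of the erythroid markers, 2 were at 0 in CKO and 1 in WT cells at 48 h. Among the natural killer markers, Eomes was called higher with stimulation and the other 3 lower, in each genotype. The part of these signals in the chaperone values was not tested. In RNA from many cells, fewer cells of a type and less RNA per cell cannot be told apart. Each library was compared with the mean of the other libraries of its group, as a root mean square of log2 differences over 15935 genes. WT replicate 1 stood apart at both times, at 0.482 at 48 h and 0.474 at 0 h, and so did CKO replicate 2 at 0 h, at 0.478, against 0.384 to 0.440 for the other 9 libraries. Calls among the 10 genes that change without WT replicate 1 are given both ways, and the number of the 10 genes called was the same without CKO replicate 2 at 0 h in all 5 comparisons.

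Promoter stretches are shown for the neighbours Hspa1a and Hspa1b, whose counts are hard to tell apart, and for Hsph1 and the pair Hspe1 and Hspd1, which rose with stimulation and carry the unit that HSF1 binds. They come from RefSeq on GRCm38.p6, while the submitters' processing notes name GRCm39 for the counts, so the positions hold for GRCm38.p6 only. RefSeq windows matched 6 of the 10 genes by symbol, and Hspa8, Hsp90aa1, Hsp90ab1 and Hsf1 were not matched. Capitals mark matches to GAANNTTC or TTCNNGAA, which are inverted copies of the unit GAA in either order and read the same on both strands. The first pair covers 250 bases before the start site on the minus strand of chromosome 17, at chr17:34972157-34972406 for Hspa1a and chr17:34959239-34959488 for Hspa1b. For Hsph1, 30 bases around a match before its start are at chr5:149636351-149636380 and 30 bases after its start at chr5:149636287-149636316, both on the minus strand. Hspe1 and Hspd1 run apart from each other, and 30 bases of the promoter between them are at chr1:55088053-55088082, printed on the plus strand, with Hspe1 to the right.
Hspa1a: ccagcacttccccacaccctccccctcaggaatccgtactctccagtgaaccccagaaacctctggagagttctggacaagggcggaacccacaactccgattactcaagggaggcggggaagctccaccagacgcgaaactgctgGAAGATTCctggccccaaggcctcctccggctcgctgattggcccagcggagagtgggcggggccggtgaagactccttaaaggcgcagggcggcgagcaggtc
Hspa1b: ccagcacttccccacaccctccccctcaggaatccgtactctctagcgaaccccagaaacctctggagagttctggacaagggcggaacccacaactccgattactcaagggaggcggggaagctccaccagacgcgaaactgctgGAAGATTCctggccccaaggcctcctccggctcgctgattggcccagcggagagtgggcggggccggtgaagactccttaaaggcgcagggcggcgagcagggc
Hsph1 before its start: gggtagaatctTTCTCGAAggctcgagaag
Hsph1 after its start: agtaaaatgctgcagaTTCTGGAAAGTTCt
Hspe1-Hspd1 promoter: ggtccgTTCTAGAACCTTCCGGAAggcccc

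The windows of Hspa1a and Hspa1b differed at 3 of 250 bases, written C44T, T47C and T249G with the Hspa1a base first and positions counted from 1 at the 5′ end of the window. Each held 1 match, GAAGATTC, at position -104 from the start site. In the promoter between Hspe1 and Hspd1, overlapping matches at positions -89, -84 and -79 from the Hspe1 start form 1 run, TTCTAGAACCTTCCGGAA, with 4 copies of the unit in turn. Hsph1 had TTCTCGAA at position -33 and a run of 3 units, TTCTGGAAAGTTC, at position 37. From another RefSeq start of Hsph1 the same matches lay at positions -54 and 16. Another window of Hspd1, at chr1:55088194-55088493, held no match. Neither window of Dnajb1 held a match, which says only that these letters are not there. Over all 32851 RefSeq windows of 300 bases, 250 before and 50 after a start site, 7.86% held GAANNTTC, 8.52% held TTCNNGAA and 0.603% held 3 units in turn (GAANNTTCNNGAA or TTCNNGAANNTTC). A match describes the letters and does not show that a factor binds there.

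**Figure D1:**
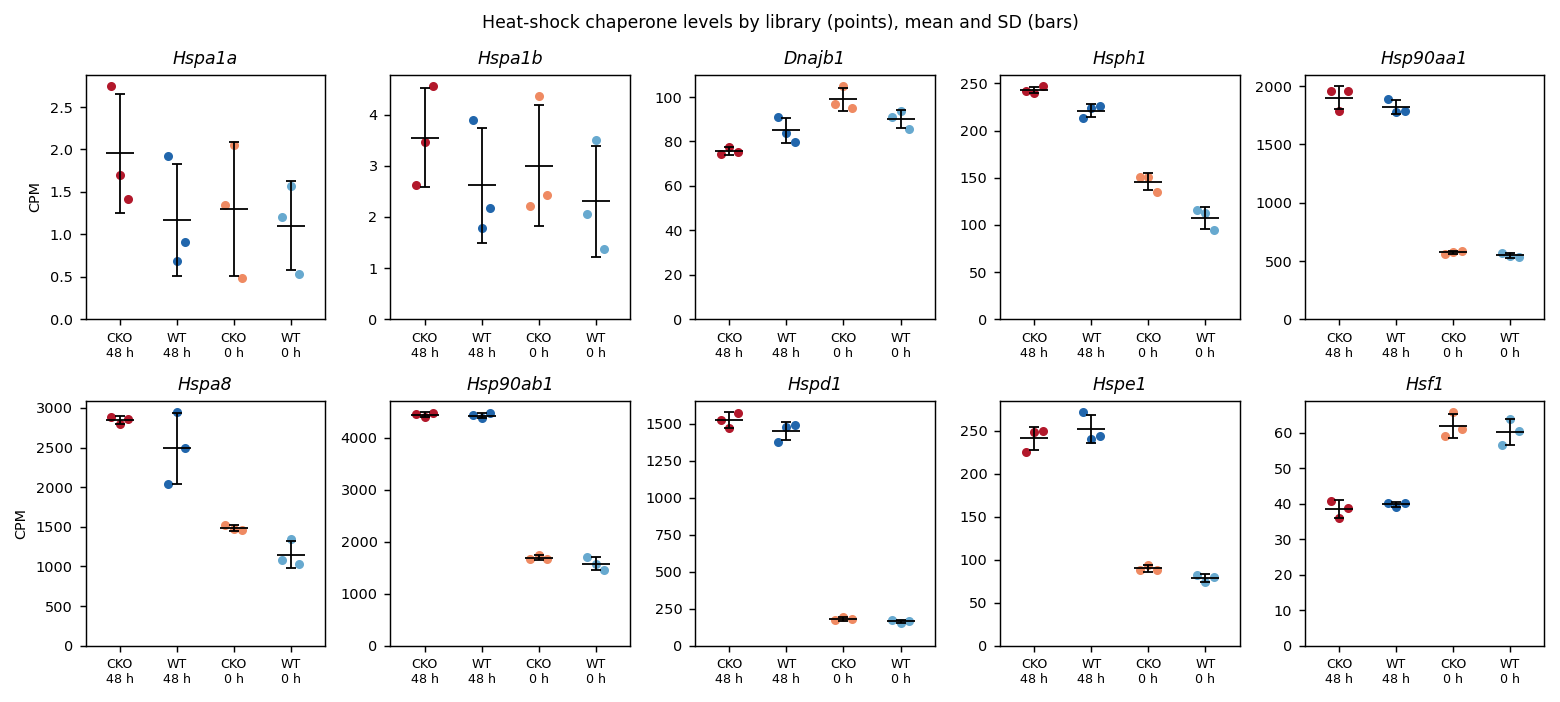
Level of each of the 10 genes (y axis, CPM, from 0) in every library, with CKO and WT at 48 h to the left of CKO and WT at 0 h; points are libraries and bars the mean and SD of 3. Hspa8, Hsp90ab1, Hspd1, Hspe1, Hsph1 and Hsp90aa1 were higher in every 48 h library than in any 0 h library of the same genotype, Hsf1 was lower, and Hspa1a and Hspa1b stayed below 5 CPM throughout. How many of all genes lacked such overlap was not counted.

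With stimulation, all 4 folding chaperones rose in both genotypes. Of the 5 stress-inducible genes, Hsph1 and Hsp90aa1 rose in both, Dnajb1 fell in CKO cells, and neither Hspa1a nor Hspa1b was called. Hsf1 fell in both genotypes. In CKO cells 8 of 10 genes were called, 6 higher and 2 lower, against 77.7% of all genes tested (38.5% higher and 39.2% lower). In WT cells 7 of 10 were called, 6 higher and 1 lower, against 77.9% of all genes tested (38.7% higher and 39.1% lower). Most genes changed over the 48 h, so a call by itself sets no gene apart, and the sizes below carry the description. The share of all genes tested without overlap between the times was not counted, so a lack of overlap sets no gene apart either.

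Hspa1a and Hspa1b encode the classical inducible HSP70, and their counts were low in every library. Hspa1b (ENSMUSG00000090877) had 2.63, 3.46 and 4.55 CPM in CKO cells at 48 h, against 2.21, 4.36 and 2.44 CPM at 0 h. In WT cells it had 3.90, 1.79 and 2.18 CPM at 48 h, against 2.06, 3.49 and 1.37 CPM at 0 h. The libraries of the 2 times overlapped in both genotypes, with log2 changes of 0.24 ± 0.36 in CKO and 0.17 ± 0.38 in WT cells (edgeR adjusted p = 0.552 in CKO and 0.690 in WT cells). Hspa1a (ENSMUSG00000091971) was lower still, at 0.487 to 2.75 CPM over the 12 libraries, with 49, 31 and 28 counts in CKO cells at 48 h, against 22, 34 and 8 counts at 0 h. WT cells gave 37, 13 and 20 Hspa1a counts at 48 h, against 21, 31 and 9 counts at 0 h. These libraries overlapped too, and the log2 changes of 0.58 ± 0.49 in CKO and 0.068 ± 0.51 in WT cells were not called (edgeR adjusted p = 0.285 in CKO and 0.907 in WT cells). The 95% intervals, -0.45 to 1.61 in CKO and -1.005 to 1.14 in WT cells for Hspa1a and -0.53 to 1.01 in CKO and -0.62 to 0.96 in WT cells for Hspa1b, reached past 1, a 2-fold rise, in all but WT Hspa1b.

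The 2 transcripts are 99.1% identical over 2200 aligned bases, with a longest identical run of 638 bases, so the split of reads between them is uncertain. Reads that match both genes may also have been left uncounted, since the counting program was not given, and low counts then need not mean low RNA. With their counts summed, the log2 change was 0.35 ± 0.37 in CKO and 0.14 ± 0.38 in WT cells (edgeR adjusted p = 0.390 in CKO and 0.745 in WT cells).

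Dnajb1 (ENSMUSG00000005483, chromosome 8), the J-domain partner of inducible HSP70, had 74.4, 77.5 and 75.2 CPM in CKO cells at 48 h, against 96.8, 105 and 95.2 CPM at 0 h. It fell, with no overlap between times and a log2 change of -0.39 ± 0.066 (edgeR adjusted p = 2.98e-05). In WT cells the levels were 91.2, 83.7 and 80.0 CPM at 48 h, against 90.8, 93.8 and 85.7 CPM at 0 h. These overlapped, with a log2 change of -0.085 ± 0.066 (edgeR adjusted p = 0.243). A stricter filter on low counts, which shifted all genes of this contrast by -0.13 on the log2 scale, gave -0.21 (edgeR adjusted p = 0.00470), so the WT call depends on that choice.

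Hsph1 (ENSMUSG00000029657, chromosome 5) encodes an HSP110 protein, the exchange factor of the group. Its levels in CKO cells were 242, 240.1 and 247 CPM at 48 h, against 151, 150.5 and 135 CPM at 0 h. In WT cells they were 213, 224 and 226 CPM at 48 h, against 116, 112 and 94.4 CPM at 0 h. Every stimulated library was above every unstimulated one, and the log2 change was 0.74 ± 0.071 in CKO and 1.04 ± 0.072 in WT cells (edgeR adjusted p = 1.12e-08 in CKO and 6.63e-11 in WT cells).

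Hsp90aa1 (ENSMUSG00000021270, chromosome 12) is the inducible cytosolic HSP90 gene and was the most abundant of the stress-inducible group. It had 1955, 1786 and 1960.1 CPM in CKO cells at 48 h, against 559, 580.0 and 582 CPM at 0 h. WT cells had 1891, 1779 and 1789.7 CPM at 48 h, against 571, 544 and 531 CPM at 0 h. The log2 change was 1.73 ± 0.057 in CKO and 1.73 ± 0.057 in WT cells, folds of 3.31 in CKO and 3.32 in WT cells (edgeR adjusted p = 7.78e-16 in CKO and 7.16e-16 in WT cells). Its rise was larger than that of its constitutive partner Hsp90ab1 in both genotypes, a difference that was not tested.

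Among the folding chaperones, Hspd1 had the largest change. Hspd1 (ENSMUSG00000025980, chromosome 1), the barrel of the mitochondrial chamber, had 1523, 1469 and 1576 CPM in CKO cells at 48 h, against 171, 192 and 179 CPM at 0 h. In WT cells it had 1379, 1479 and 1493 CPM at 48 h, against 176, 155 and 164 CPM at 0 h. It rose 8.42-fold in CKO and 8.79-fold in WT cells, with log2 changes of 3.07 ± 0.067 in CKO and 3.14 ± 0.067 in WT cells (edgeR adjusted p = 2.47e-18 in CKO and 1.62e-18 in WT cells). Hspe1 (ENSMUSG00000073676, chromosome 1), the lid, shares the printed promoter with Hspd1 and rose too, with a smaller change. It had 226, 249 and 249 CPM in CKO cells at 48 h, against 87.5, 94.3 and 87.5 CPM at 0 h. In WT cells it had 271, 241 and 244 CPM at 48 h, against 82.2, 74.1 and 79.7 CPM at 0 h. These were log2 changes of 1.43 ± 0.067 in CKO and 1.68 ± 0.068 in WT cells (edgeR adjusted p = 1.77e-13 in CKO and 1.52e-14 in WT cells), folds of 2.69 in CKO and 3.21 in WT cells. Named pseudogenes of Hspd1 held 1.23% to 2.22% of the counts of the gene across libraries and those of Hspe1 up to 1.64%. One RefSeq start of Hspd1 lies inside Hspe1 on the opposite strand, and the strand setting of the counting was not given, so a few reads there could belong to either gene.

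Hspa8 (ENSMUSG00000015656, chromosome 9) encodes the constitutive cytosolic HSP70. It had 2889, 2797 and 2863 CPM in CKO cells at 48 h, against 1523, 1472 and 1460.3 CPM at 0 h. WT levels were 2039, 2942 and 2488 CPM at 48 h, against 1080.2, 1342 and 1029 CPM at 0 h. The WT libraries were wider apart than the CKO ones at each time, yet the times did not overlap, and the log2 change was 0.94 ± 0.12 in CKO and 1.11 ± 0.12 in WT cells (edgeR adjusted p = 1.57e-05 in CKO and 3.32e-06 in WT cells). Hsp90ab1 (ENSMUSG00000023944, chromosome 17), the constitutive cytosolic HSP90 gene, had 4469.9, 4398 and 4473 CPM in CKO cells at 48 h, against 1661, 1752 and 1677 CPM at 0 h. Its WT levels were 4437, 4383 and 4471 CPM at 48 h, against 1701, 1577 and 1458 CPM at 0 h. These were log2 changes of 1.39 ± 0.058 in CKO and 1.49 ± 0.058 in WT cells (edgeR adjusted p = 2.21e-14 in CKO and 7.98e-15 in WT cells), and the 6 stimulated libraries lay close together.

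Hsf1 (ENSMUSG00000022556, chromosome 15), the factor that drives the heat-shock response, fell in both genotypes. It had 40.9, 35.9 and 38.7 CPM in CKO cells at 48 h, against 59.1, 65.7 and 61.2 CPM at 0 h. In WT cells it had 40.3, 38.9 and 40.1 CPM at 48 h, against 56.6, 63.8 and 60.3 CPM at 0 h. The times did not overlap, with log2 changes of -0.69 ± 0.074 in CKO and -0.60 ± 0.074 in WT cells (edgeR adjusted p = 6.54e-08 in CKO and 4.07e-07 in WT cells). The activity of HSF1 is known to be set mainly at the protein, which RNA levels do not measure.

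**Figure D2:**
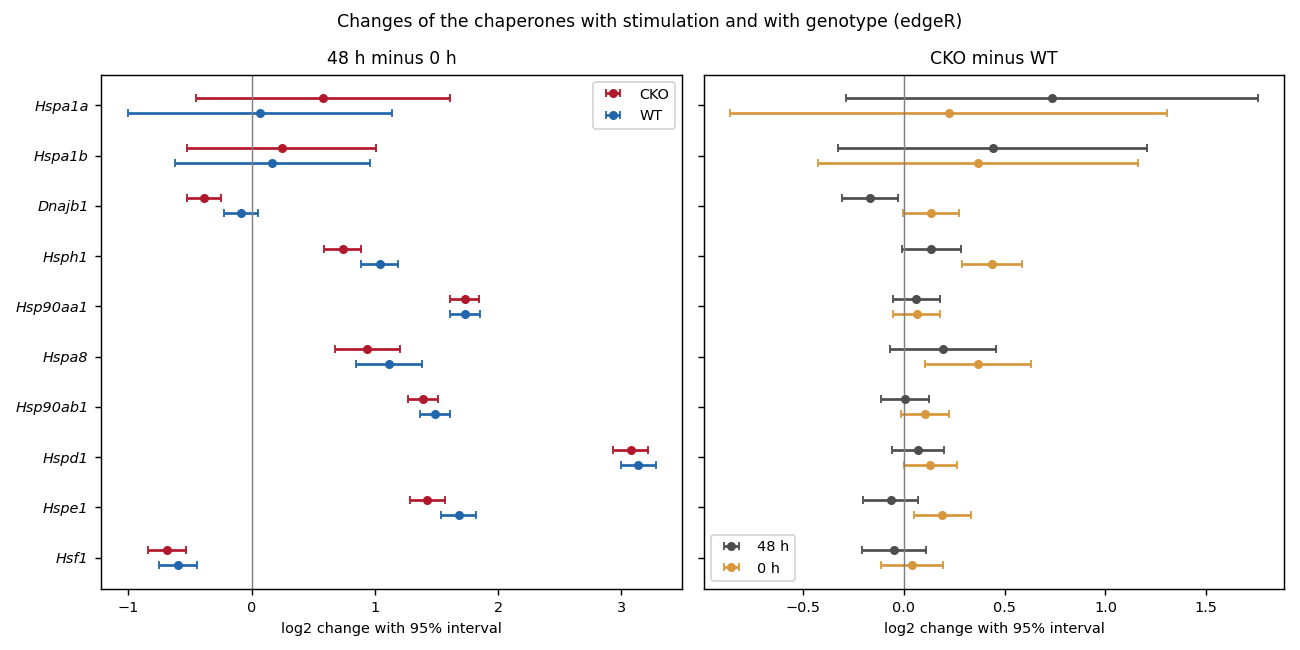
Log2 change of each gene (x axis) with its 95% interval from edgeR; the left panel gives 48 h minus 0 h in CKO (red) and WT (blue) cells, the right panel CKO minus WT at 48 h (grey) and 0 h (orange). Hspd1 changed by about 3 on the log2 scale in both genotypes, Hspa1a and Hspa1b have wide intervals across 0, and on the right Hsph1 at 0 h stands clear of 0.

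Set side by side per length of exon, the genes spanned a wide range of levels. In CKO cells at 48 h, Hsp90ab1 stood highest at 1483 CPM per kb, followed by Hspa8 at 663, Hspd1 at 576, Hsp90aa1 at 483, Hspe1 at 164, Hsph1 at 33.4 and Dnajb1 at 23.6 CPM per kb. Hsf1 had 5.42 CPM per kb, and Hspa1b and Hspa1a closed the order with 1.27 and 0.659 CPM per kb. WT cells at 48 h gave the same order. There Hspa8, at 474 to 684 CPM per kb across libraries, overlapped both Hspd1, at 522 to 565, and Hsp90aa1, at 452 to 481 CPM per kb, so the order of these neighbours is not settled. At 0 h Hspd1, at 68.4 CPM per kb in CKO and 62.4 CPM per kb in WT cells, stood below Hsp90aa1, at 146 CPM per kb in CKO and 139.6 CPM per kb in WT cells. Hsph1 and Dnajb1 also changed places, since at 0 h Hsph1 had 20.0 CPM per kb in CKO and 14.8 in WT cells, and Dnajb1 30.9 in CKO and 28.1 CPM per kb in WT cells. In CPM, without the lengths, Hsph1 was above Dnajb1 in every library at both times, so this change of places rests on the lengths. Hspa1a and Hspa1b overlapped in CPM per kb in WT cells at both times and did not in CKO cells, with the uncertain split of their reads on top.

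The 10 genes together took a larger share of all counts after stimulation. The share was 1.13 ± 0.0191% in CKO and 1.06 ± 0.0480% in WT cells at 48 h, against 0.441 ± 0.00670% in CKO and 0.380 ± 0.0236% in WT cells at 0 h (SD, n = 3 each). The balance between the groups was measured as the log2 ratio of summed stress-inducible to summed folding CPM. It was -2.03 ± 0.0454 in CKO and -2.02 ± 0.119 in WT cells at 48 h, and -2.07 ± 0.0145 in CKO and -1.99 ± 0.0646 in WT cells at 0 h (SD, n = 3 each). Single libraries ran from -2.08 to -1.9997 in CKO and -2.11 to -1.88 in WT cells at 48 h, against -2.09 to -2.06 in CKO and -2.06 to -1.94 in WT cells at 0 h, so the times overlapped in each genotype. The sum is mostly Hsp90aa1, and without that gene the ratio was -4.80 ± 0.0180 in CKO and -4.80 ± 0.0790 in WT cells at 48 h, against -3.80 ± 0.0638 in CKO and -3.89 ± 0.0271 in WT cells at 0 h. Then every stimulated library lay below every unstimulated one, and the sum of Hspa1a, Hspa1b, Dnajb1 and Hsph1 grew less than that of the folding genes. The mean of log2 levels in place of sums also gave lower values at 48 h, with -4.97 ± 0.0434 in CKO and -5.18 ± 0.343 in WT cells, against -3.88 ± 0.285 in CKO and -3.92 ± 0.295 in WT cells at 0 h (SD, n = 3 each). In this version Hspa1a and Hspa1b, with their low counts and uncertain split, weigh as much as each other stress-inducible gene. Leaving out Hsph1 instead gave higher mean ratios at 48 h. These were -2.19 in CKO and -2.17 in WT cells, against -2.35 in CKO and -2.21 in WT cells at 0 h. The times then overlapped in WT and not in CKO cells, so the direction depends on the version of the ratio.

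**Figure D3:**
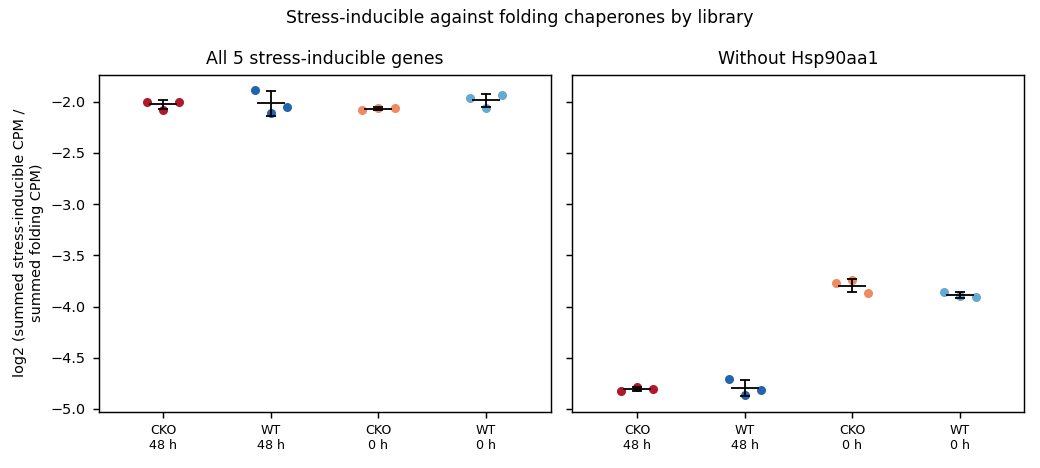
Log2 ratio of the summed CPM of the stress-inducible genes to that of the folding genes (y axis) in each library, with CKO and WT at 48 h left of CKO and WT at 0 h; bars are the mean and SD of 3. With all 5 stress-inducible genes (left) the groups lie together near -2, and without Hsp90aa1 (right) the 48 h libraries lie near -4.80, below the 0 h libraries, which lie above -4.

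The wider chaperone network was followed in lists of related genes, given as counts and medians beside the median of all genes tested, which was -0.044 in CKO and -0.033 in WT cells. For the counts in all these lists, the shares of all genes tested were 38.5% higher and 39.2% lower in CKO cells. In WT cells they were 38.7% higher and 39.1% lower. The cytosolic chaperonin CCT, a ring that folds actin and tubulin, rose as a unit. All 8 of its 8 subunits were called higher in CKO and in WT cells, with median log2 changes of 1.39 in CKO and 1.38 in WT cells. Tcp1 changed by 1.70 ± 0.058 in CKO and 1.79 ± 0.058 in WT cells, Cct6a by 1.83 ± 0.061 in CKO and 1.83 ± 0.061 in WT cells, and Cct8 by 1.54 ± 0.054 in CKO and 1.55 ± 0.054 in WT cells. Prefoldin, which passes nascent chains to CCT, had 5 of 6 subunits higher and 1 lower in each genotype. Pfdn1 rose by 1.92 ± 0.12 in CKO and 2.06 ± 0.12 in WT cells, Pfdn6 by 1.63 ± 0.10 in CKO and 1.62 ± 0.10 in WT cells, and Pfdn4 by 1.40 ± 0.11 in CKO and 1.46 ± 0.11 in WT cells. Of 12 other mitochondrial chaperones and proteases, 11 were higher in CKO and 12 in WT cells, with medians of 0.91 in CKO and 0.91 in WT cells. Among them were Hspa9, the mitochondrial HSP70, with log2 changes of 1.77 ± 0.055 in CKO and 1.79 ± 0.055 in WT cells, and the matrix proteases Lonp1, with 1.42 ± 0.063 in CKO and 1.45 ± 0.062 in WT cells, and Clpp, with 1.97 ± 0.10 in CKO and 2.14 ± 0.11 in WT cells.

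Lists that serve HSP90 and the endoplasmic reticulum (ER) were also mostly higher. Of 16 HSP90 co-chaperones, 11 were higher and 3 lower in each genotype, with medians of 0.99 in CKO and 0.94 in WT cells. The phosphatase Ppp5c changed by 1.75 ± 0.059 in CKO and 1.54 ± 0.059 in WT cells, Nudc by 1.59 ± 0.062 in CKO and 1.65 ± 0.061 in WT cells, and the prolyl isomerase Ppid by 1.71 ± 0.064 in CKO and 1.53 ± 0.063 in WT cells. Of 12 ER chaperones, 10 were higher and 2 lower in each genotype. Sdf2l1 rose by 2.74 ± 0.13 in CKO and 2.81 ± 0.12 in WT cells, and Canx, the calnexin gene, by 1.75 ± 0.056 in CKO and 1.71 ± 0.056 in WT cells. Dnajb9, a J-domain partner of the ER HSP70, fell by log2 changes of -4.30 ± 0.10 in CKO and -4.07 ± 0.10 in WT cells, the widest move of that list.

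The relatives of HSP70 and its partners were mixed. Of 17 HSP70 relatives and exchange factors, 9 were higher and 2 lower in CKO cells, and 9 higher and 3 lower in WT cells. Hspa4, an HSP110 relative of Hsph1, changed by 1.35 ± 0.059 in CKO and 1.30 ± 0.059 in WT cells, Hspa14 by 0.99 ± 0.060 in CKO and 1.03 ± 0.060 in WT cells, and St13 by 1.10 ± 0.057 in CKO and 1.14 ± 0.057 in WT cells. Of 16 J-domain partners, 6 were higher and 8 lower in CKO cells, and 5 higher and 8 lower in WT cells, so Dnajb1 was not the only one that failed to rise. Dnajc2, which works at the ribosome, rose by 1.63 ± 0.074 in CKO and 1.67 ± 0.074 in WT cells, and the histone chaperone Dnajc9 changed by 1.12 ± 0.069 in CKO and 1.04 ± 0.069 in WT cells. Dnajb4 fell by log2 changes of -2.77 ± 0.10 in CKO and -2.51 ± 0.10 in WT cells.

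Genes often raised by heat did not move one way. Only 2 of 9 small heat-shock proteins passed the filter on low counts, Hspb6 and Hspb11. Hspb11, which is also known as a ciliary transport protein, had log2 changes of 0.50 ± 0.13 in CKO and 0.38 ± 0.13 in WT cells, and Hspb6 of 1.28 ± 0.28 in CKO and 0.59 ± 0.26 in WT cells. All were called, but both WT calls were fragile. Of the alternatives that change the counts, samples or tool and keep the threshold, the WT call of Hspb6 held under only 9 of 20, with edgeR or DESeq2 adjusted p between 0.0288 and 0.151. The WT call of Hspb11 was lost under the stricter filter (edgeR adjusted p = 0.0705), without WT replicate 1 at 48 h (0.0552) and without it at both times (0.0682). Among 3 of 5 tested members of the HSF family and its regulators, Hsf2 rose by 1.79 ± 0.087 in CKO and 1.79 ± 0.086 in WT cells and Hsbp1, whose protein binds HSF1, by 0.54 ± 0.089 in CKO and 0.51 ± 0.089 in WT cells. Hsf4 was not called, with -0.41 ± 0.48 in CKO and 0.080 ± 0.48 in WT cells (edgeR adjusted p = 0.440 in CKO and 0.884 in WT cells). Of 12 tested of 16 other heat-shock responsive genes, 6 were higher and 4 lower in CKO cells, and 7 higher and 4 lower in WT cells. Mrpl18, a mitochondrial ribosomal protein gene, rose by 2.18 ± 0.073 in CKO and 2.51 ± 0.074 in WT cells, and Stip1, whose protein links HSP70 to HSP90, by 1.49 ± 0.072 in CKO and 1.80 ± 0.072 in WT cells. Rgs2, a regulator of G-protein signalling, fell by log2 changes of -3.12 ± 0.11 in CKO and -4.45 ± 0.12 in WT cells. Stip1 is counted in 2 of these lists, as are several others. Of 13 immediate early genes, 2 were higher and 10 lower in CKO cells, and 1 higher and 10 lower in WT cells, among the lower ones Btg2 at -2.84 ± 0.058 in CKO and -2.99 ± 0.058 in WT cells, Dusp1 at -4.45 ± 0.10 in CKO and -4.28 ± 0.10 in WT cells, and Ier2 at -0.74 ± 0.058 in CKO and -0.61 ± 0.057 in WT cells.

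**Figure D4:**
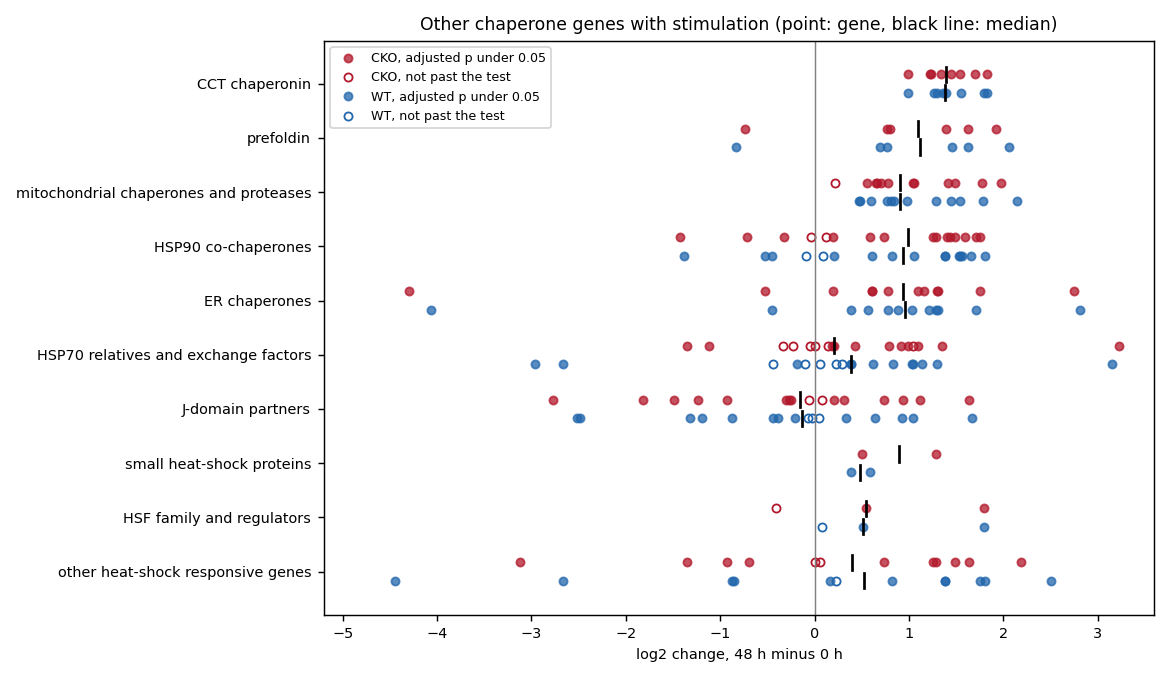
Log2 change at 48 h minus 0 h (x axis) of the tested genes of 10 chaperone lists (rows), CKO in red above WT in blue; filled points were called, open ones were not, and black lines are medians. The CCT genes lie between 0.98 and 1.83 in both genotypes, while the J-domain partners spread to both sides of 0.

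Between the genotypes at 0 h, 1 of the 10 genes was called, higher in CKO cells, against 7.48% of all genes tested (4.10% higher and 3.38% lower). That gene was Hsph1, whose 3 CKO libraries, given above, all lay above the 3 WT ones. Its log2 difference was 0.44 ± 0.072, a 1.35-fold higher level (edgeR adjusted p = 0.000593). The call held under all 21 alternatives that keep the threshold, with adjusted p between 8.34e-08 and 0.00597 and log2 differences from 0.35 to 0.50. It was lost when a log2 change of at least 1 was also required. Hspa8 also had no overlap between CKO and WT libraries at 0 h, with a log2 difference of 0.37 ± 0.12, and missed the threshold (edgeR adjusted p = 0.0963). It was called under 7 of the same 21 alternatives. These include a fit of only the 2 groups (adjusted p = 0.0147), DESeq2 (0.0150) and the fits without WT replicate 2 at 0 h (0.0169) or without WT replicate 1 or 2 at 48 h (0.0176 and 0.0206). Hspe1 was called too when WT replicate 1 at 48 h was left out (edgeR adjusted p = 0.0349). In the fit of all libraries Hspe1 and Dnajb1 did not overlap either, with log2 differences of 0.19 ± 0.068 and 0.14 ± 0.066 (edgeR adjusted p = 0.1001 and 0.251). The share of all genes tested without overlap was not counted, so a lack of overlap sets no gene apart here.

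All 10 log2 differences at 0 h were above 0, from 0.040 for Hsf1 to 0.44 for Hsph1, but those of Hsf1, Hspa1a and Hspa1b turned below 0 when certain single libraries were left out. The median log2 difference of all genes tested was -0.0053. The share of all genes above 0 was not counted, and the same sign in 10 genes from the same libraries was not tested. The other 5 were 0.22 ± 0.51 for Hspa1a, 0.37 ± 0.38 for Hspa1b, 0.064 ± 0.056 for Hsp90aa1, 0.10 ± 0.057 for Hsp90ab1 and 0.13 ± 0.063 for Hspd1, and none of them was called. Their 95% intervals were -0.86 to 1.30, -0.43 to 1.16, -0.053 to 0.18, -0.014 to 0.22 and -0.00011 to 0.26 in that order. Without WT replicate 1 at both times, a choice made after seeing the data, 4 of the 10 were called, all higher, namely Hsph1, Hsp90ab1, Hspd1 and Hspe1, against 9.38% of all genes tested (5.34% higher and 4.04% lower). The summed B-cell markers were lower in CKO than in WT libraries at 0 h, as given above, but none of the 8 was called by edgeR. The summed immediate early genes overlapped between genotypes. The summed B-cell level also spread widely in WT cells, from 301 to 586 CPM. The part of both marker sets in the chaperone differences was not tested.

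In the wider lists at 0 h, the exchange factor Bag3 was lower in CKO cells, while Hsph1 was higher. Bag3 had 10.6, 13.3 and 7.92 CPM in CKO cells, against 25.3, 20.4 and 23.1 CPM in WT cells, without overlap, a log2 difference of -1.11 ± 0.18 (edgeR adjusted p = 0.000496). Bag3 is a textbook heat-shock responsive gene and a partner of HSP70 in selective autophagy. Hspa13, an HSP70 relative of the ER, was higher in CKO cells by 0.46 ± 0.085 (edgeR adjusted p = 0.00155), and no other of the 17 HSP70 relatives and exchange factors was called. Of the 16 J-domain partners, Dnajb4 was higher by 0.36 ± 0.090 and Dnaja4, Dnajb5 and Dnajc9 were lower, with log2 differences of -0.53 ± 0.11, -0.52 ± 0.12 and -0.24 ± 0.070 (edgeR adjusted p = 0.0179, 0.00626, 0.01004 and 0.0405). Stip1 was higher by 0.25 ± 0.071 and was the only one of 16 HSP90 co-chaperones called, and Mrpl18 was higher by 0.27 ± 0.076 (edgeR adjusted p = 0.0340 and 0.0334). Of the immediate early genes, 1 of 13 was called, Btg2, lower in CKO cells with a log2 difference of -0.33 ± 0.054 (edgeR adjusted p = 0.000620). Under the 21 alternatives that keep the threshold, the calls of Bag3, Hspa13 and Dnaja4 all held, and those of Dnajb4, Dnajb5, Dnajc9, Stip1 and Mrpl18 held under 17, 19, 10, 17 and 17. With a log2 change of at least 1 also required, of these 8 genes only Bag3 was called. Stip1 was lost without replicate 1 or 2 of CKO or replicate 1 or 3 of WT cells at 0 h (edgeR adjusted p = 0.105, 0.146, 0.1004 and 0.140), and Mrpl18 without CKO replicate 2 or WT replicate 1 or 2 at 0 h (0.131, 0.107 and 0.108). Dnajb4 was lost without replicate 1 or 3 of CKO or 2 or 3 of WT cells at 0 h (0.0789, 0.120, 0.0910 and 0.0696), and Dnajb5 without replicate 3 of either genotype at 0 h (0.0559 for CKO and 0.0535 for WT). Dnajc9 was lost without any of 8 single libraries, with adjusted p up to 0.195, and without WT replicate 1 at both times (0.0568). Of the 7 CD8 T-cell markers, Cd8a was called lower in CKO cells at 0 h, with a log2 difference of -0.19 ± 0.056 (edgeR adjusted p = 0.0423). None of the CCT, prefoldin, mitochondrial or ER genes was called at 0 h by edgeR. Over all genes tested 7.48% were called at 0 h, so 1 call in a list of 16 or 13 sets no list apart.

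After 48 h, none of the 10 genes was called between CKO and WT cells by edgeR, and none by DESeq2, against 4.54% of all genes tested by edgeR (2.35% higher and 2.19% lower) and 6.06% by DESeq2. At an unadjusted p under 0.05 there was 1, Dnajb1, against 16.7% of all genes (8.62% lower). Its log2 difference was -0.17 ± 0.066 with no overlap, lower in CKO cells (edgeR unadjusted p = 0.0220, adjusted p = 0.195). Hsph1 remained without overlap, higher in CKO cells by 0.14 ± 0.070 (edgeR adjusted p = 0.340). How many of all genes lacked overlap at 48 h was not counted either. The intervals for the abundant genes were narrow: the 95% interval of the log2 difference was -0.11 to 0.12 for Hsp90ab1, -0.054 to 0.18 for Hsp90aa1, -0.059 to 0.20 for Hspd1 and -0.20 to 0.073 for Hspe1. It was wider for Hspa8, -0.068 to 0.46, and widest for Hspa1a, -0.29 to 1.76, and Hspa1b, -0.32 to 1.21, both of which reach past 1. Hsf1 had an interval of -0.20 to 0.11. Of the wider lists, Dnaja4 was lower in CKO cells by a log2 difference of -0.45 ± 0.12 (edgeR adjusted p = 0.0423), a call that held under 11 of the 21 alternatives that keep the threshold and was lost without any of 8 single libraries, with adjusted p up to 0.197. Rgs2 was higher, with 51.4, 47.5 and 45.7 CPM in CKO cells, against 14.3, 21.9 and 21.7 CPM in WT cells, a log2 difference of 1.32 ± 0.12 (edgeR adjusted p = 7.56e-06). Markers of cell type differed at 48 h too. Cd8a and Cd8b1, which encode the CD8 chains, were called lower in CKO cells, with log2 differences of -0.36 ± 0.056 and -0.26 ± 0.070 (edgeR adjusted p = 0.000480 and 0.0387), and the other 5 CD8 T-cell markers were not called. The 4 natural killer markers had none called. Most of their sum was Eomes, which activated CD8 T cells are also known to make, at 131, 187 and 179.9 CPM in CKO cells, against 238, 258 and 221 CPM in WT cells. Ncr1 had 1.06, 1.32 and 1.32 CPM in CKO cells, against 0.884, 0.526 and 0.726 CPM in WT cells, and thus lay the other way. Klrb1c lay as Ncr1 did, with 43, 43 and 43 counts in CKO cells, against 28, 39 and 40 counts in WT cells. Klra8 overlapped, with 17, 11 and 24 counts in CKO cells, against 25, 17 and 22 counts in WT cells. The part of these markers in the chaperone values was not tested.

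The difference between the genotypes' responses was tested as an interaction, and none of the 10 genes was called by edgeR or by DESeq2, against 1.38% of all genes tested by edgeR (0.609% higher and 0.772% lower) and 2.62% by DESeq2. At an unadjusted p under 0.05 there were 3, all with the lower response in CKO cells, against 12.8% of all genes (6.97% lower). Dnajb1 had a difference of log2 changes of -0.30 ± 0.094 (edgeR unadjusted p = 0.00461, adjusted p = 0.137), Hsph1 of -0.30 ± 0.10 (0.00755, adjusted 0.175) and Hspe1 of -0.25 ± 0.094 (0.0141, adjusted 0.228). Thus the fall of Dnajb1 was called in CKO and not in WT cells, but the responses were not shown to differ. Hsph1 was called without WT replicate 1 at both times, with -0.40 (edgeR adjusted p = 0.0275), against 2.27% of all genes in that fit (0.872% higher and 1.39% lower). Among the wider lists, Bag3 fell less in CKO cells, with a log2 change of -1.35 ± 0.20, against -2.67 ± 0.20 in WT cells, an interaction of 1.32 ± 0.28 (edgeR adjusted p = 0.0179). Its level was 4.15 ± 0.370 CPM in CKO and 3.61 ± 0.876 CPM in WT cells at 48 h (SD, n = 3 each), and the libraries overlapped. Without WT replicate 3, CKO replicate 1 or CKO replicate 3 at 48 h the Bag3 interaction missed the threshold, with adjusted p between 0.0559 and 0.0632. Rgs2 fell less in CKO cells as well, with an interaction of 1.32 ± 0.16 (edgeR adjusted p = 0.000577), and it held under all 20 alternatives that keep the threshold and with a log2 change of at least 1.

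**Figure D5:**
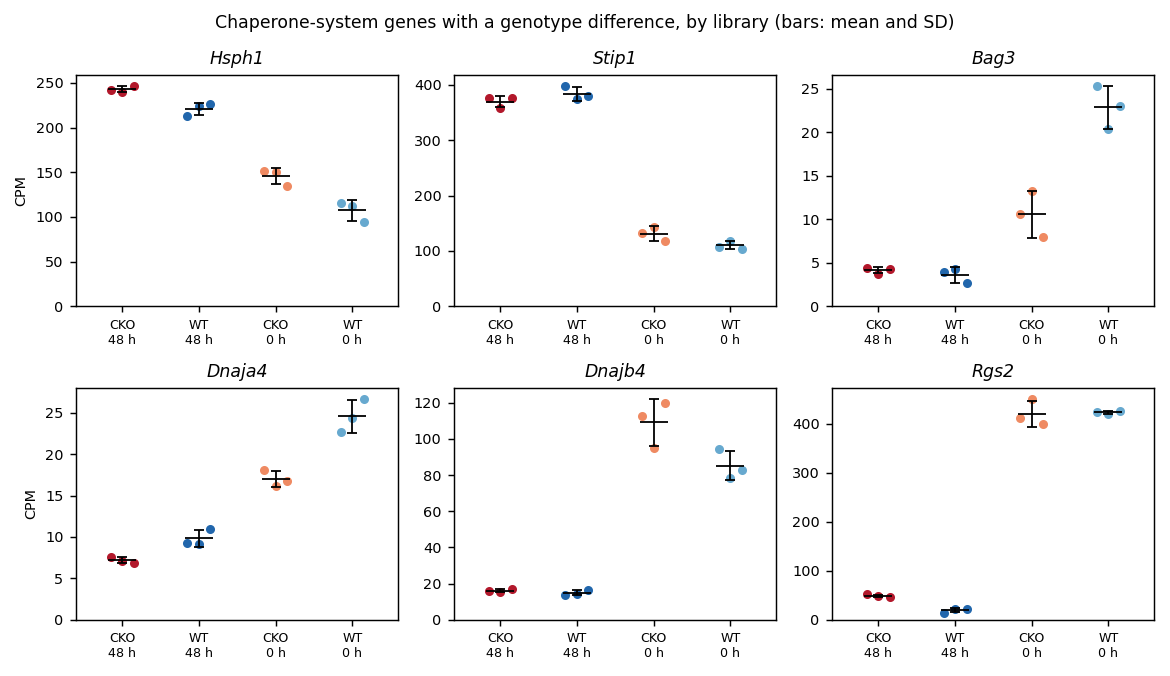
Level (y axis, CPM, from 0) of Hsph1 and of 5 related genes called between genotypes, in every library, with CKO left of WT at each time; points are libraries and bars the mean and SD of 3. Hsph1 is higher and Bag3 and Dnaja4 lower in all CKO libraries at 0 h, the Bag3 groups overlap at 48 h, and Rgs2 is higher in all CKO libraries at 48 h and overlaps at 0 h.

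The genes whose levels followed a member most closely were ranked by Pearson's r of log2 CPM over the 12 libraries, which share 4 groups and mostly differ by time, so r is a description. For Hspd1 the closest genes outside the 10 were Bcat1, Kif20a and Cdc25a, each with r = 0.999, and Hsp90aa1 and Hsp90ab1 also had 0.999 and 0.998. For Hspa8 they were Dync2h1 at 0.992, Cep192 at 0.986 and Lrp5 at 0.985, closer than any of the 10, of which Hsph1 came nearest at 0.970. For Hspa1b they were Fkbp9 at 0.823, Paip1 at 0.794 and Gm37125 at 0.778, with Hspa1a at 0.686. The values for Hspa1b, at its low counts, were the lowest of the 3.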

How the data were processed

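Per the labels' protocols, TRIzol was used for the RNA and a TruSeq Stranded mRNA kit for the libraries. The authors deposited 1 table of raw counts, with a row for each Ensembl ID and no scaling. The submitters' processing notes name cutadapt, HISAT2 2.2.1, DESeq2 and the build GRCm39. The counting program, annotation release and strand setting were not given. All 12 sample columns were used, with totals of 15900529 to 22427151 counts and 15935 of 56691 genes kept by filterByExpr.

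Counts were scaled with TMM and fitted with edgeR 4.0.16 (robust quasi-likelihood, 1 mean for each of 4 groups, 8 residual degrees of freedom) in R 4.3.3. The 5 contrasts were 48 h minus 0 h in each genotype, CKO minus WT at each time, and the interaction. P-values are two-sided with Benjamini-Hochberg adjustment over all 15935 genes. SE is the absolute log2 change divided by the square root of F. Groups hold 3 libraries each, and SDs are over them. The fit was tested on simulated data. DESeq2 1.42.0 was an alternative, as were other scalings, filters and sample sets (limma 3.58.1 was loaded by edgeR).

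Symbols came from a reference name table for 52073 of the IDs, and IDs without a symbol held 0.249% of counts. Exon lengths and chromosomes came from GENCODE on GRCm38 and promoters from RefSeq on GRCm38.p6, since no annotation of GRCm39 was used here. Summaries used Python 3.11.15 with NumPy 2.4.6 and pandas 2.3.3, and plots matplotlib 3.10.9. The members, the lists and the tests were chosen with earlier results of these data known. Besides the 10 members and Senp1, the text names, per list, up to 3 genes with the smallest p with stimulation and up to 4 called between genotypes or in the interaction, and for 3 members the 3 genes with the highest Pearson's r of log2 CPM (prior count 2).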

Additional observations from a re-analysis of the deposited data

Results flagged for a closer look

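Over all genes, 220 responses to stimulation differed between the genotypes by the edgeR interaction test (adjusted p under 0.05). Of the chaperone and marker lists described here and Senp1, 3 genes were among them, none of the 10 chaperones. Bag3 had an interaction of 1.32 ± 0.28 (edgeR adjusted p = 0.0179), which missed the threshold without WT replicate 3, CKO replicate 1 or CKO replicate 3 at 48 h. Rgs2 had an interaction of 1.32 ± 0.16 (edgeR adjusted p = 0.000577). Senp1, the targeted gene, had an interaction of -0.67 ± 0.098 (edgeR adjusted p = 0.000926), with 70.3 ± 4.13 CPM in CKO and 162 ± 10.5 CPM in WT cells at 48 h, against 57.0 ± 2.64 CPM in CKO and 82.4 ± 3.99 CPM in WT cells at 0 h (SD, n = 3 each).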

How the results depend on the processing

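Of 218 alternative counts of chaperones called, 205 were equal to the reported count or within 1.5 times of it. The equal ones include each reported 0 that stayed 0, as in CKO minus WT at 48 h, so 205 says little of the counts above 0. In CKO minus WT at 0 h the count of higher genes was 2, with Hspa8 beside Hsph1, under no count filter, the replicate block, DESeq2 and a fit of only the 2 groups, 0 with a log2 change of at least 1, 1 to 3 when 1 library was left out and 4 without WT replicate 1 at both times. The count of lower genes in WT stimulation was 2 under the stricter filter. With a log2 change of at least 1 it was 0 in CKO and 0 in WT stimulation. The interaction gave 1 lower gene, Hsph1, without WT replicate 1 at both times. The log2 ratio of stress-inducible to folding chaperones was, without Hsp90aa1, -4.80 in CKO and -4.80 in WT cells at 48 h, against -3.80 in CKO and -3.89 in WT cells at 0 h. Without Hsph1 it was -2.19 in CKO and -2.17 in WT cells at 48 h, against -2.35 in CKO and -2.21 in WT cells at 0 h. As a difference of mean log2 CPM it was -4.97 in CKO and -5.18 in WT cells at 48 h, against -3.88 in CKO and -3.92 in WT cells at 0 h.

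Of 1080 alternative values of single chaperones, 29 changed sign, all of genes that were not called. The Hsp90aa1 interaction was 0.0071 with median-of-ratios size factors and with DESeq2, and -0.036 to 0.033 when 1 library was left out. Hsp90ab1 in CKO minus WT at 48 h was -0.015 with no count filter and -0.0040 to 0.016 when 1 library was left out. In WT stimulation without WT replicate 1 at both times, Hspa1a had -0.41 and Hspa1b -0.30. When 1 library was left out, WT stimulation gave -0.47 to 0.42 for Hspa1a and -0.22 to 0.61 for Hspa1b, CKO minus WT at 0 h gave -0.28 to 0.61 for Hspa1a, -0.0020 to 0.80 for Hspa1b and -0.0035 to 0.085 for Hsf1, CKO minus WT at 48 h gave -0.093 to 0.00048 for Hsf1, and the interaction gave -0.36 to 0.46 for Hspa1b, which was 0.54 without WT replicate 1 at both times. The cause was not tested.

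Over all genes, the 0 h contrast called 1192 genes, 340 with a log2 change of at least 1 and 699 to 1598 when 1 library was left out. The 48 h contrast called 724, 1204 with no filter, 238 with a log2 change of at least 1 and 348 to 781 when 1 library was left out. The interaction called 220, 576 with no filter, 418 with DESeq2, 82 with a log2 change of at least 1, 116 to 335 when 1 library was left out and 361 without WT replicate 1 at both times. Stimulation called 12377 genes in CKO and 12409 in WT cells, and 7539 in CKO and 7538 in WT cells with a log2 change of at least 1. The stricter filter shifted the median of all genes by -0.13 on the log2 scale in both. Deviations from group means of same-numbered libraries correlated at -0.011 to 0.16 and those of different numbers at -0.15 to 0.035. Between the 2 times of the same genotype, same-numbered libraries all correlated above 0, at 0.042 to 0.16. Those of different numbers lay at -0.15 to 0.022. Deviations sum to 0 within a group, so values of different numbers tend below 0 where those of the same number lie above it. The 2 ranges are therefore not separate information. The main fit did not pair the samples, and whether the numbers link the times within a genotype was not tested. The replicate block changed 1 call among the 10 genes, that of Hspa8 at 0 h (edgeR adjusted p = 0.0336). The values of Hspa1a rest on 8 to 49 counts a library, and the cause of these low counts was not tested.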
